A study of Mus musculus with 2 samples.

Results

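An intron of the mouse gene Sfmbt2 carries one of the largest microRNA clusters of the mouse genome, made of many near-identical copies of the miR-297, miR-466, miR-467 and miR-669 families. The members described here are all microRNA genes that lie on the same strand within the gene body of Sfmbt2 on chromosome 2 (GRCm38). Of the 1973 microRNA genes in the deposited tables, 107 met this rule. The rule uses position and strand and no measured value, but it was chosen with earlier results of these data known. The 2 libraries hold short RNA from skeletal muscle of mice of strain B6NCrl at postnatal day 0. Each was made from tissue of 1 pup, untreated as far as the labels say, and the labels number them as biological replicates 1 and 2. They form 1 group, and the design holds no second condition. Both carry the same donor record and sex was not recorded. Whether they come from separate pups or from the same pup is not settled by the labels, so the SD over the 2 libraries may hold technical spread only. The tissue is a piece of whole muscle, in which fewer cells of a type and less RNA per cell cannot be told apart.

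MicroRNAs are cut from hairpin transcripts, and 1 or both arms of a hairpin become a mature strand that pairs with messenger RNAs through its seed, bases 2 to 8. Sfmbt2 encodes a Polycomb-group protein and is imprinted, with expression from the paternal copy in early embryos and in extraembryonic tissue. Its microRNA cluster is found in rodents, is read from the same strand as the host gene, and is best known from the placenta and from embryonic stem cells. Parental origin was not measured here.

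The mature sequences below show the kind of sequence these families are built from. They belong to family genes that lie outside Sfmbt2, on chromosomes 3, 5, 9, 10, 11 and 13, and were taken from RefSeq (GRCm38.p6), written 5′ to 3′ with the seed in capitals. The RefSeq table used here matched 0 of the 107 members by symbol, and 8 of the 10 family genes outside the host.
miR-466j: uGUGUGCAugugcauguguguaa
miR-466k: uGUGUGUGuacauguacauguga
miR-467h: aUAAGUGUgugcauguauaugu
miR-669n: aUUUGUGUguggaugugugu
miR-466i-3p: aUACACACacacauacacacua
miR-467f: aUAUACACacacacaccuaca
miR-467g: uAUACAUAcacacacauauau
miR-466q: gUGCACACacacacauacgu

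The first 4 are rich in alternating U and G, with 14 of 22 neighbouring base pairs of miR-466j made of these letters in either order. The last 4 are rich in alternating A and C, with 15 of 21 in miR-466i-3p. No seed is shared, since the 8 sequences have 8 distinct seeds, yet long stretches recur inside the host intron. A run of 22 bases of miR-466j was found in the hairpins of 10 members and a run of 22 bases of miR-466k in 8. In miR-467h a run of 18 bases was found in 3 members, and runs of at least 12 bases in 37. A short read with such a sequence can therefore fit several genes at once.

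All 107 members lay in a single intron of 62.5 kb, which is intron 10 of a host transcript (chr2:10461473-10523944, plus strand). Their hairpins span 53.0 kb of it, from 10465287 to 10518279. By symbol, 20 members belong to miR-466, 20 to miR-669, 14 to miR-467 and 5 to miR-297, and 48 carry only a Gm number. Annotated hairpins were 73 to 127 bases long. The later annotation used for positions lists 119 microRNA genes in the intron, all on the plus strand, and the 12 that have no row in the tables were not analysed here. Among those 12, Mir669a-4 to Mir669a-12 have 1 identical hairpin sequence in all 9 copies, and the others are Mir466b-1, Mir466c-1 and Mir466e.

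The deposited tables give reads with several possible positions a row of their own and assign none of them to a gene. Stretches of 20 bases, close to the length of a microRNA, show how much of each hairpin can give reads with a single position. Of the 107 members, 104 share at least 1 stretch with another annotated microRNA gene. In 42 members every stretch recurs elsewhere, and these had 0 counts in both libraries. The remaining 65 have at least 1 stretch of their own, and 9 of them (13.8%) had at least 10 counts in both libraries. Among the microRNA genes outside the cluster, 355 of 1572 with a stretch of their own (22.6%) and 1 of 215 without one reached that level. The extent of sharing differs between the sets. Every stretch was its own in 972 of 1787 genes outside the cluster (54.4%) and in 3 of the 107 members. The percentages detected are therefore not matched for shared sequence. The 84 distinct hairpin sequences among the members include groups of exact copies, and 38 members have an identical copy in the intron. Only hairpins were compared, so further copies elsewhere in the genome were not looked for.

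Across the whole cluster, 12433 of 7955914 annotated-strand microRNA counts fell on members in replicate 1 and 10274 of 10816295 in replicate 2. That is 0.156% (exact 95% binomial interval 0.154 to 0.159) and 0.0950% (0.0932 to 0.0968) of all microRNA counts, or 0.126% ± 0.0433 (SD, n = 2). Scaled to 1000000 microRNA counts per library (CPM), the summed level was 1563 in replicate 1 and 950 in replicate 2. These intervals cover counting error only. Reads with several possible positions made up 28.0% of all reads in replicate 1 and 26.9% in replicate 2. How many of them came from this cluster is not known. The members' counts are a lower limit only if reads with a single position were placed correctly, which was not tested. The share and the CPM, whose totals lack reads with several possible positions too, are neither a lower nor an upper limit. On the opposite strand the members had 0 counts in both libraries, whereas 75 of the other 1866 genes had some.

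At least 10 counts in both libraries, the level called detected here, were reached by 9 of the 107 members (8.41%), against 18.5% of all microRNA genes. The 107 include the 42 members without a stretch of their own. Another 16 members had some counts below that level, and 82 (76.6%) had 0 counts in both libraries. Of all microRNA genes, 63.6% had 0 in both. For the 40 members at 0 that do have a stretch of their own, a count of 0 allows up to 3 reads with a single position, which is 0.377 CPM in replicate 1 and 0.277 CPM in replicate 2. Reads from their shared stretches are not covered by this limit, and for the 42 members without a stretch of their own the 0 sets no limit at all.

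Of the reads with a single position, the miR-467 family held most. Mir467d, Mir467e and Mir467c together took 80.1% of the members' counts in replicate 1 and 82.2% in replicate 2, or 81.1% ± 1.48 (SD, n = 2). Mir467d (chr2:10507630-10507714) had the most counts of reads with a single position, 4634 and 4334 in replicates 1 and 2, or 582 and 401 CPM. Mir467e (chr2:10505721-10505807) lies 1.91 kb upstream of it and had 3364 and 2329 counts, or 423 and 215 CPM. Mir467c (chr2:10473931-10474027), near the other end of the cluster, had 1961 and 1782 counts, or 246 and 165 CPM. In each library the order was Mir467d, then Mir467e, then Mir467c, and replicate 1 was higher for each. Their mean levels were 492 CPM ± 129, 319 ± 147 and 206 ± 57.8 (SD, n = 2), and the mean ± SD ranges of neighbours in this order overlap. Among the 365 detected genes they ranked 118, 138 and 150.

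These 3 genes differ from the other miR-467 copies at few positions. Mir467d matches Mir467a-2 at 76 of 79 aligned positions, with an unbroken run of 60 bases, and matches Mir467e at 80 of 85. Mir467c and Mir467e match at 82 of 86. Of the 20-base stretches of Mir467d, 25 of 66 occur in no other microRNA hairpin, 19 of 33 on the 5′ side of the hairpin and 6 of 33 on the 3′ side. For Mir467e the numbers are 39 of 68, with 20 of 34 on the 5′ side and 19 of 34 on the 3′ side. For Mir467c they are 47 of 78, with 17 of 39 on the 5′ side and 30 of 39 on the 3′ side. Reads from the shared parts are missing from each of these counts, and the tables do not separate the arms.

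The other 11 miR-467 members, Mir467a-1 to Mir467a-10 and Mir467b, had 0 counts in both libraries. Of these, 10 have no stretch of their own, and Mir467b has 11 of 54. Exact copies are common among them: the hairpin of Mir467a-2 occurs 7 times in the intron, once under the symbol Gm25022. Together with Gm25022 these 12 genes follow each other at 2413 to 2470 bases, a tandem array with 1 such hairpin per unit. Whether the array is read in muscle cannot be told from these counts.

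The miR-669 family came second, with 19.4% of the members' counts in replicate 1 and 17.4% in replicate 2, and 5 of its 20 members were detected. Mir669l (chr2:10468971-10469068) had 915 and 777 counts in replicates 1 and 2, or 115 and 71.8 CPM. Mir669o (chr2:10514300-10514395) had 987 and 638 counts, or 124 and 59.0 CPM. Which of the pair is higher differs between the libraries, and their means of 93.4 CPM ± 30.5 and 91.5 ± 46.0 (SD, n = 2) do not differ beyond the spread. Mir669c (chr2:10509296-10509404) followed with 427 and 329 counts, or 53.7 and 30.4 CPM. Mir669e (chr2:10467495-10467613) had 59 and 30 counts, and Mir669h (chr2:10518155-10518279), the last member of the intron, had 13 and 11. The levels of these 5 genes thus ran from 93.4 CPM for Mir669l down to 1.33 CPM ± 0.436 for Mir669h.

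The detected miR-669 hairpins that were aligned match each other at a lower percentage of aligned positions than the 3 detected miR-467 hairpins do. Mir669l and Mir669o match at 81 of 98 aligned positions, and Mir669e and Mir669h at 82 of 110. The part of the hairpin with stretches of its own was 50.6% for Mir669l, 50.6% for Mir669o, 81.1% for Mir669c, 95% for Mir669e and 66.0% for Mir669h. Mir669e had the highest such share of the 9 detected members and one of the lowest levels. Of the other 15 miR-669 members, 13 had 0 counts in both libraries, while Mir669f had 3 and 0 and Mir669a-3 had 2 and 0.

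Of the 20 miR-466 members only Mir466n (chr2:10513741-10513834) was detected, with 25 and 20 counts in replicates 1 and 2, or 3.14 and 1.85 CPM. The whole family took 0.314% and 0.282% of the members' counts. No miR-297 member was detected. Mir297a-2 (chr2:10472254-10472343) missed the level by 1 count, with 19 and 9 counts, and stood just outside, while Mir669h with 13 and 11 stood just inside. The next below it were Gm25263 with 4 and 4 counts, Mir466 with 3 and 3, Mir466b-3 with 2 and 3 and Mir466h with 3 and 1. None of the 48 members with a Gm number was detected, and together they had 10 and 4 counts. Of those 48, 22 have no stretch of their own.

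Per 100 bases of hairpin, the level was 578 CPM for Mir467d, 367 for Mir467e and 212 for Mir467c. It was 95.3 for both Mir669o and Mir669l, 38.6 for Mir669c, 4.28 for Mir669e, 2.65 for Mir466n and 1.06 for Mir669h. The order by length-scaled level was the same as by CPM but for Mir669l and Mir669o, which were level. A read covers about the length of a microRNA whatever the length of the hairpin. The scaling is therefore a description and corrects no level. Of the 9 detected members, 5 stood above 87.0 CPM, the median of all detected genes. A median splits those genes evenly by definition, so this share is near that of all detected genes.

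**Figure D1:**
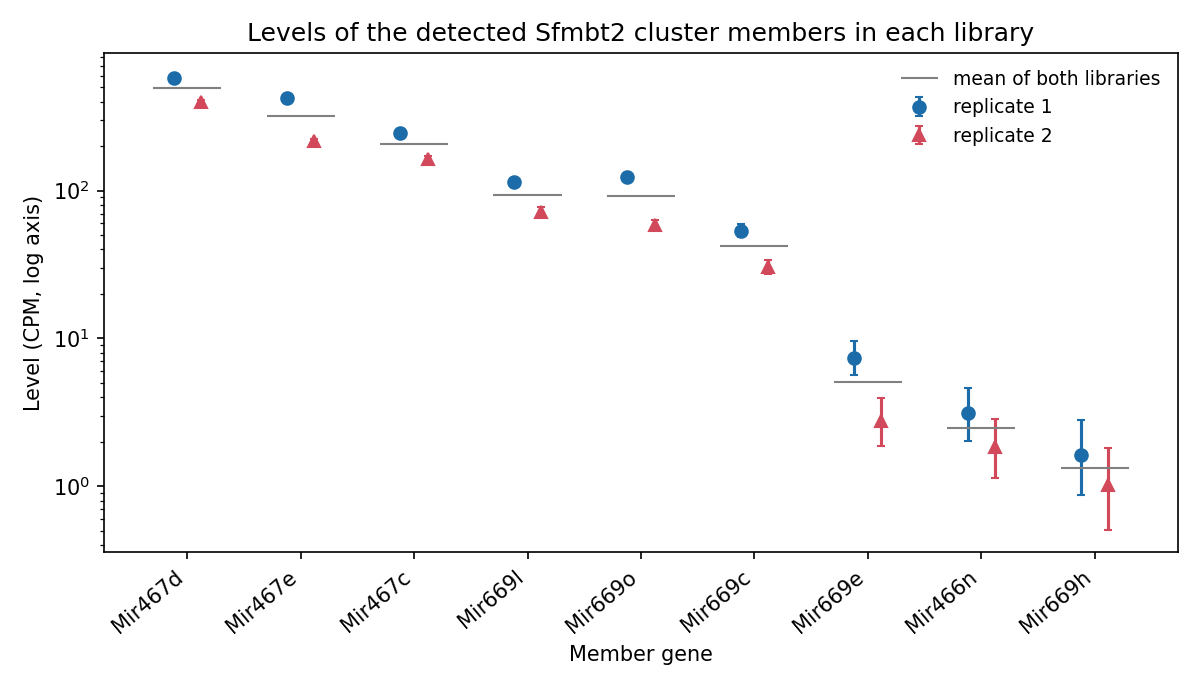
Level in CPM (log axis) of each detected member in replicate 1 (circles) and replicate 2 (triangles), with exact 95% Poisson intervals that cover counting error only and the mean of both libraries as a grey line. Mir467d, Mir467e and Mir467c lie above 100 CPM in both libraries, and for Mir466n and Mir669h the intervals of the libraries overlap.

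Detected members sat at the 2 ends of the cluster. The 60 members between Mir467c and Mir467e, a stretch of 31.7 kb, included 0 detected genes, and 58 of them had 0 counts in both libraries. In this middle part 40 of the 60 members have no stretch of their own. Of the 47 members from either end up to and including Mir467c and Mir467e, 9 were detected (19.1%), and 2 have no stretch of their own. The first 17 members held 3 detected genes and the last 30 held 6. The 12 genes without a row in the tables all lie in the middle part as well. These limits were drawn after the values were seen and are a description.

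**Figure D2:**
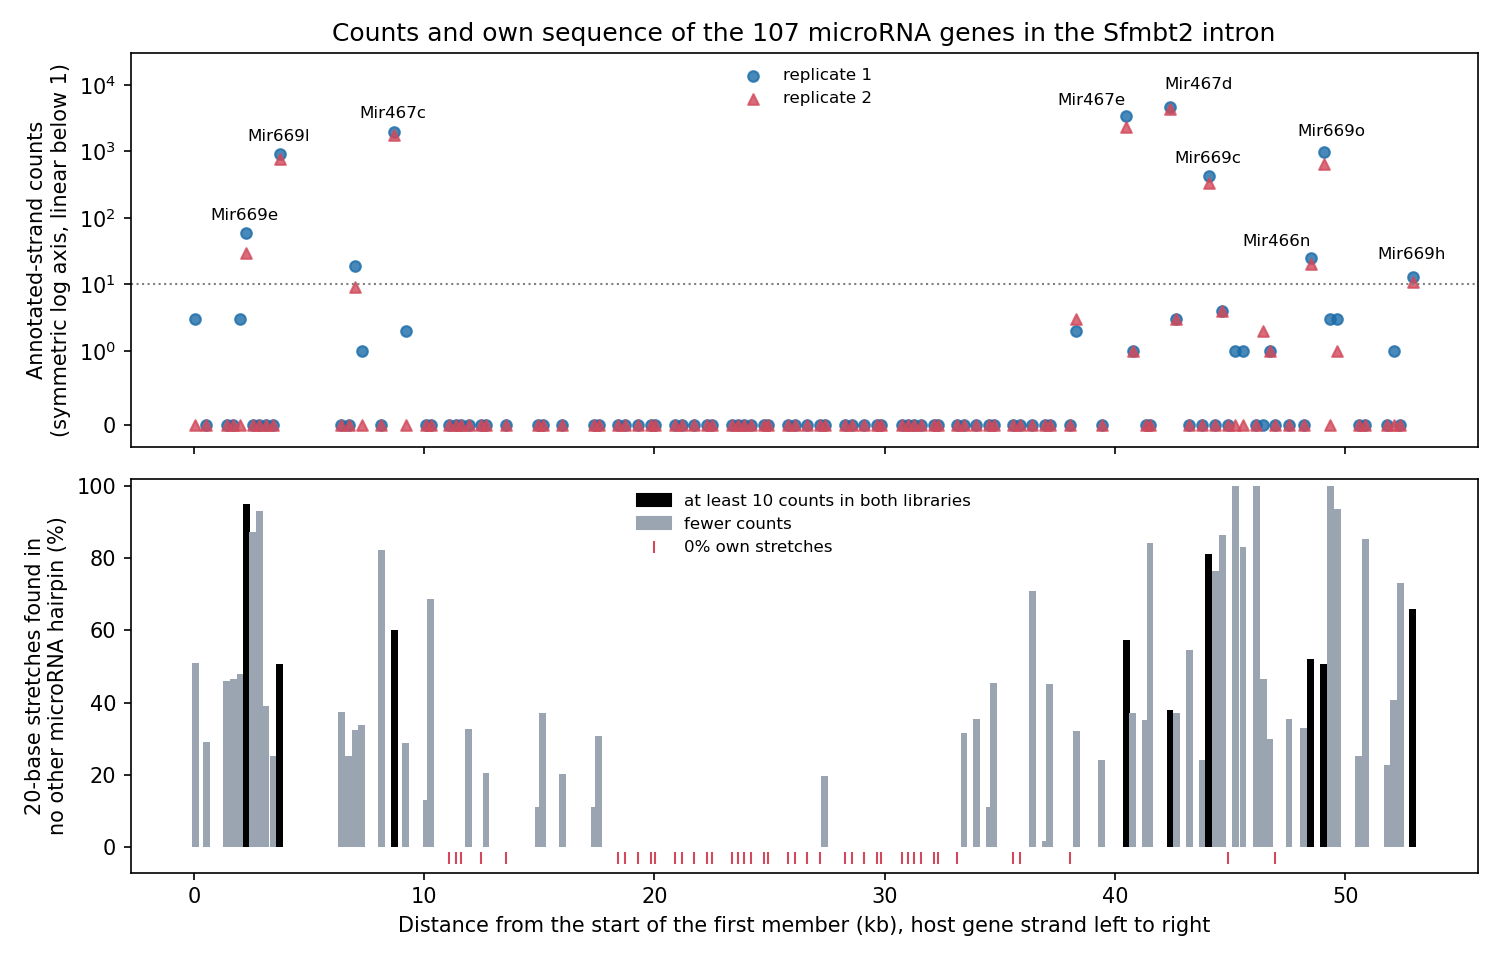
Annotated-strand counts of the 107 members in each library (upper panel, symmetric log axis with the detection level of 10 dotted) and the share of 20-base stretches found in no other microRNA hairpin (lower panel), against distance from the first member in kb. Detected members lie at both ends, and red ticks mark the 42 members with a share of 0%, all of which had 0 counts.

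The members' hairpins were poorer in G and C than other microRNA hairpins. Their GC content had a median of 38.3% (29.0 to 43.4), against 52.0% for the 1787 other annotated genes of the tables. Steps of C and A in alternation made up a median of 24.6% of neighbouring base pairs along the hairpin, against 11.7% elsewhere, and 69 of 107 members exceeded the 95th percentile of other genes, 22.0%. Steps of U and G made up 23.4% against 15.3%, and 6 of 107 members exceeded the 95th percentile of other genes, 30.2%. Members are copies of each other, so these values carry no test.

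The families have 10 genes elsewhere in the tables, on chromosomes 3, 5, 7, 9, 10, 11 and 13. All 10 have stretches of their own, from 35.1% of the hairpin in Mir297-1 to 100% in Mir669n. Only Mir466q had any counts, with 3 in replicate 1 and 7 in replicate 2, and the other 9 had 0 in both. A stretch of its own may lie outside the mature strand, however. Runs of 22 bases of miR-466j and miR-466k and of 21 bases of miR-466i-3p recur in hairpins of members. Reads of such strands can have several positions and go uncounted. From reads with a single position, the detected genes of these families all lay within Sfmbt2, and whether the other genes are read cannot be told from these counts.

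Every detected member was higher in replicate 1, although replicate 2 was the deeper library. Library sizes were scaled by the trimmed mean of M values (TMM), and the counts of a gene in the 2 libraries were set against those totals in a two-sided exact binomial test, with Benjamini-Hochberg adjustment over the 365 detected genes. This test compares the 2 libraries, with counting error as its only error term. Of the 9 members, 7 passed an adjusted p under 0.05 as higher in replicate 1, against 30.1% of all detected genes, and 0 as higher in replicate 2, against 31.0%. At least 2-fold and past the adjusted p were 1 member as higher in replicate 1, against 6.30% of genes, and 0 as higher in replicate 2, against 1.10%. The median log2 ratio of replicate 1 over replicate 2 was 0.52 for the detected members and 0.01 for all detected genes, of which 18.4% lay above 0.52. Ratios above 0 were found for all 9 members and for 192 of the 365 detected genes (52.6%). The members lie in 1 intron and share sequence, so they are not independent of each other.

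Mir669e was the member past 2-fold, with 6.81 TMM-scaled CPM in replicate 1 and 3.02 in replicate 2. Its log2 ratio was 1.17 (95% counting interval 0.52 to 1.86, adjusted p = 5.1e-04 by the exact binomial test), from 59 and 30 counts. For Mir669o the ratio was 0.83 (0.68 to 0.97) and for Mir467e 0.73 (0.65 to 0.80). Lower ratios were found for Mir669c at 0.57 (0.36 to 0.79), Mir669l at 0.43 (0.29 to 0.57), Mir467c at 0.34 (0.24 to 0.43) and Mir467d at 0.29 (0.23 to 0.35). The intervals of Mir467e and Mir467d, which cover counting error only, do not overlap. These genes lie 1.91 kb apart and are 94.1% identical, and their counts hold only reads with a single position. For Mir466n at 0.52 (-0.39 to 1.44) and Mir669h at 0.44 (-0.84 to 1.74) the interval includes 0, with adjusted p = 0.319 and 0.643 by the exact binomial test. With library totals in place of TMM the median of the members was 0.77, and Mir669o also passed 2-fold with a ratio of 1.07.

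**Figure D3:**
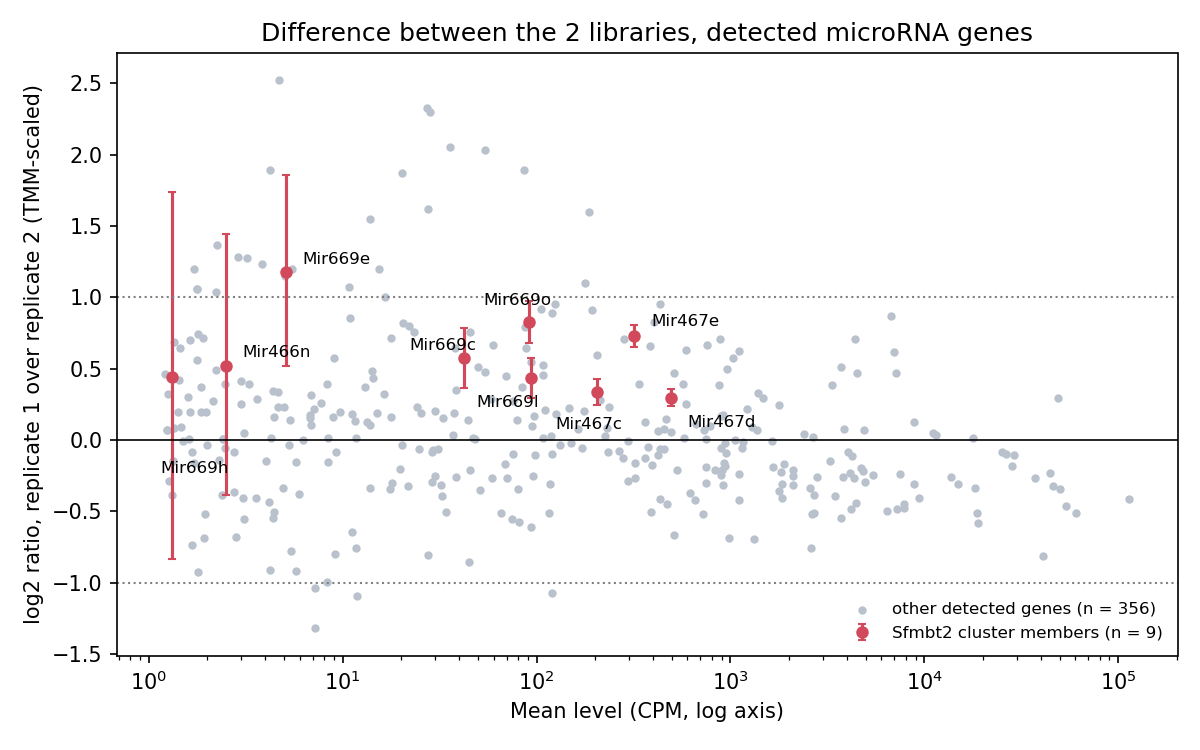
TMM-scaled log2 ratio of replicate 1 over replicate 2 against mean level in CPM (log axis) for all 365 detected genes, with the 9 members in red and their 95% counting intervals. All 9 members lie above 0, with Mir669e alone above the dotted line at 1.

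Some markers of other cells also differed between the libraries. The 2 erythroid genes, both detected, summed to 583 CPM in replicate 1 and 286 in replicate 2. The 4 leukocyte genes in the tables, all detected, summed to 752 and 546 CPM. These sums are without TMM scaling, and single genes did not all follow them. On the TMM scale the log2 ratio was 0.83 for Mir451a and 0.20 (-0.04 to 0.45) for Mir144, the erythroid genes. For the leukocyte genes it was 0.76 for Mir155, 0.54 for Mir146, 0.14 for Mir223 and -0.21 for Mir150. These lists do not cover all cell types. Larger ratios lay outside them, such as 2.52 for Mir200a and 2.32 for Mir200b, and -1.32 for Mir592 in the other direction. Muscle genes summed to 109281 and 122732 CPM, almost all of it from Mir206, with 7 of the 8 in the tables detected. Their TMM-scaled log2 ratios were -0.42 for Mir206, -0.30 for Mir208b, -0.21 for Mir133b and -0.15 for Mir133a-1. Ratios above 0 were found for Mir1b (0.56), Mir1a-1 (0.39) and Mir499 (0.06). The intervals of Mir133a-1, Mir1b, Mir1a-1 and Mir499 include 0. Reads with several possible positions are missing here too. Mir1a-1 and Mir133a-1 have 84.5% and 65.3% of their stretches to themselves, and Mir1a-2 is not in the tables. The counts of such muscle genes are therefore lower limits, if reads with a single position were placed correctly. The endothelial gene Mir126a had 44986 and 47428 CPM, with a TMM-scaled log2 ratio of -0.32. Of 11 genes in the tables that mark pluripotent and early embryo cells, where the Sfmbt2 cluster is known to be read, only Mir302d was detected, with 13 counts in each library, and Mir290a, Mir291b and Mir367 had 0 counts. That list summed to 6.91 and 5.36 CPM, below the level of Mir467d alone in each library. The part of these cell types in the members' counts was not tested.

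Other imprinted microRNA genes show the scale of the cluster in this tissue. Mir335, in an intron of the paternally expressed gene Mest, had 58089 CPM in replicate 1 and 39909 in replicate 2. This was 37.2 and 42.0 times the summed level of all 107 members, with the members' shared reads missing from the comparison. Mir298 and Mir296, which lie at the imprinted Gnas locus on chromosome 2, had 4817 CPM ± 61.4 and 2708 ± 185 (SD, n = 2). Mir483, in an intron of the paternally expressed Igf2, had 7533 and 7508 CPM in replicates 1 and 2, and Mir127, from the imprinted Dlk1-Dio3 region and read from the maternal copy, had 37145 and 37634. Among these genes Mir335 had the widest gap between the libraries in CPM without TMM scaling, in the same direction as the members. On the TMM scale its log2 ratio of replicate 1 over replicate 2 was 0.30. The other genes of this list were higher in replicate 2 on that scale, with wider gaps for Mir296 (-0.38) and Mir675 (-0.31). Mir675, cut from the imprinted noncoding RNA H19, had 117 CPM ± 3.56, below the level of each of the 3 detected miR-467 genes.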

How the data were processed

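The authors deposited raw counts of reads per microRNA gene, 1 table with 3 columns per library. Of the rows of each file, 4 name no gene (45.7% and 41.7% of reads in replicates 1 and 2) and entered neither library sizes nor tests. The assembly was mm10 and the annotation GENCODE M4, per the deposited readme. No source used here names the aligner or the counting program. The columns were read as counts on both strands, the annotated and the opposite strand, because the last 2 add up to the first and the second holds most counts. Members came from GENCODE M21 on GRCm38, the assembly of mm10, by gene ID without version (1894 of 1973 matched), and hairpin stretches from its transcripts. The members, lists and tests were chosen with earlier results of these data known. Every detected member is named, with the 5 nearest below the count minimum of 10. CPM are scaled to each library's annotated-strand microRNA counts. TMM factors (1.09 and 0.918) came from edgeR 4.0.16 in R 4.3.3, binomial tests across all detected genes from scipy 1.17.1, alignments from Biopython 1.88. The test was checked on simulated counts that held counting error only. That check cannot show how the test behaves where libraries differ by more than counting error. Alternatives were other count minimums, strand columns, denominators, scalings (library totals, DESeq2 1.42.0), fold minimums, stretch lengths and single replicates.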

Additional observations from a re-analysis of the deposited data

How the results depend on the processing

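No paired analysis was possible because both libraries belong to 1 group. With a count minimum of 1 in place of 10, 16 members were detected, and with either replicate left out 9 to 10 were. The share of microRNA counts on members was 0.0623% with all reads as the denominator and 2.51e-05% over the members that share no stretch with another gene of the tables, and it lay between 0.0950% and 0.156% with 1 replicate left out. Members past 2-fold and the adjusted p numbered 2 with library totals, 0 with a count minimum of 50 and 3 with a fold minimum of 1.5. The minimum of 50 removes Mir669e, the 1 member called. No ratio of the 9 detected members reversed under the alternatives that gave it a value. A count minimum of 50 gave none for Mir669e, Mir466n and Mir669h, and another fold minimum leaves the ratios themselves as they are. The members that share a stretch numbered 103 to 105 in place of 104 across stretches of 18 and 24 bases and a search of both strands or of the tables alone, the last 2 chosen after seeing the data. The libraries' difference cannot be tested with 1 replicate left out. Depth limits Mir466n and Mir669h, whose intervals include a log2 ratio of 0.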
